A study of Mus musculus with 7 samples.

Results

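The promoters of 39 DNA repair genes were followed in ATAC-seq data of young and aged mouse liver. ATAC-seq marks accessible chromatin, because the Tn5 transposase inserts sequencing adapters where DNA is not covered by nucleosomes. The genes belong to double-strand break repair (18 genes), base excision repair (9 genes), nucleotide excision repair (10 genes) and mismatch repair (2 genes). A gene was represented by the consensus regions lying within 200 bp of one of its TSSs in GENCODE M21 (GRCm38). All 39 genes had such a region, and they had 46 of the 55680 consensus regions and of the 15422 promoter regions between them. Where a gene had several (6 genes), the one with the highest mean signal was used. All samples were livers of male C57BL/6N mice, 3 samples from animals aged 3 months (young) and 4 from animals aged 18 months (aged), without any treatment or transgene. The deposited design traces the 4 aged samples to 3 animals, since 1 liver was sampled in 2 lobules, and which samples these were is not given in the sources used here. The methods of the study count 4 aged biological replicates. The p-values treat the 4 samples as independent, although 2 of them share an animal, and each pair was also summed.

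DNA is damaged continuously, by oxidation, hydrolysis, radiation and replication errors, and each of the pathways deals with a different kind of lesion. Double-strand breaks are sensed by kinases and the MRN complex and then joined end to end, or copied from the sister chromatid by homologous recombination. Base excision repair removes single altered bases, and nucleotide excision repair cuts out a short stretch around bulky or ultraviolet-induced lesions. Mismatch repair corrects errors left by the replication machinery. Hepatocytes rarely divide, they carry oxidative load from metabolism, and repair genes are expressed in most cell types as housekeeping genes. Promoters of such genes are usually rich in CpG and lack a TATA box.

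To show what these promoters look like, RefSeq promoter windows (GRCm38.p6, 250 bases before to 50 bases after the annotated start) were used, and a window lay at the region of 29 of the 39 genes. No window was matched for Rad50, Nbn, Xrcc2, Prkdc, Wrn, Blm, Polb, Xpc, Ddb2 and Ercc3. The median GC content of the 29 windows was 61.3%, against 60.7% for the 11355 windows of genes with an accessible promoter and 52.7% for all 27025 windows. The ratio of observed to expected CpG was 0.94 in the repair genes, 0.75 in genes with an accessible promoter and 0.39 in all windows. The 200 bases before the start are printed 5′ to 3′ on the strand of the gene for the 5 genes below, chosen because Xrcc3 and Xpa had every aged sample above every young one, Brca2 and Atr had every aged sample below, and Msh6 is 1 of the 2 mismatch repair genes. The stretches lie at chr17:87974850-87975049 (plus strand), chr12:111813880-111814079 (minus strand), chr4:46196312-46196511 (minus strand), chr5:150522421-150522620 (plus strand) and chr9:95857397-95857596 (plus strand). Capitals mark matches to the motifs that were searched on both strands.

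Msh6: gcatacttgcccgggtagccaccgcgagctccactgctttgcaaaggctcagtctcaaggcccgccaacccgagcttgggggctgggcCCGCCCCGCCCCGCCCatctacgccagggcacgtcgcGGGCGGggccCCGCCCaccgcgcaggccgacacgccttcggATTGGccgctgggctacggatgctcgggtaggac
Xrcc3: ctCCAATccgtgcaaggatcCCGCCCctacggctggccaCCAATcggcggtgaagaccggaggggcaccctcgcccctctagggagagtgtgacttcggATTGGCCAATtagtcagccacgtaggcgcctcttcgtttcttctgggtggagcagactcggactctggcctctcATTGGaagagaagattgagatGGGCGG
Xpa: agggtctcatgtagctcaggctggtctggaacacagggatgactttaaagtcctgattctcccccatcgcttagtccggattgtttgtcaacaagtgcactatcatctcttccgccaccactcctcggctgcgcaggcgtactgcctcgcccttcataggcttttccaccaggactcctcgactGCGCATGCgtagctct
Brca2: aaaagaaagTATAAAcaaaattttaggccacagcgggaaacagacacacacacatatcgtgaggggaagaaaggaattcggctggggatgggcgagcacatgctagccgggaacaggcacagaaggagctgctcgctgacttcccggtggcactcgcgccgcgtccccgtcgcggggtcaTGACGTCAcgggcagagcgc
Atr: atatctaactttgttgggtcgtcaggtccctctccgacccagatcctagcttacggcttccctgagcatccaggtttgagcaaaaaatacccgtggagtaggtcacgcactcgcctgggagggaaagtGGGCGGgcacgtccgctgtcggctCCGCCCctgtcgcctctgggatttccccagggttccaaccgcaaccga

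The motifs were the GC box (GGGCGG), the CCAAT box (CCAAT), the NRF1 core (GCGCATGC), the ETS core (CCGGAAG), the YY1 core (AAGATGG), the CRE (TGACGTCA), the E2F core (TTCCCGCC), the E-box (CACGTG) and the TATA box (TATAAA). Matches of 1 motif may overlap, as for the GC boxes of Msh6. The stretch of Msh6 held 5 GC boxes and 1 CCAAT box, and that of Xrcc3 held 5 CCAAT boxes and 2 GC boxes. Those of Xpa, Brca2 and Atr held no CCAAT box. Xpa held the NRF1 core, Atr held 2 GC boxes, and Brca2 held the CRE and the letters of the TATA box. In Brca2 the letters TATAAA lay near the upstream end of the stretch, away from the annotated start. Whether a match of letters acts as its motif was not tested. Over the whole windows, a GC box was found in 21 of 29 repair genes (72.4%), against 62.5% of genes with an accessible promoter and 35.9% of all windows. A CCAAT box was found in 16 (55.2%, against 38.7% and 37.9%), and the NRF1 core in 5, which were Atm, Xrcc5, Lig4, Ercc6 and Xpa (17.2%, against 5.2% and 2.80%). The ETS core was found in 7 (24.1%, against 17.5% and 9.12%) and the E-box in 5 (17.2%, against 10.1% and 7.24%). The TATA box was found in Atm and Brca2 (6.90%, against 7.42% and 14.2%), the E2F core in Msh6 (3.45%, against 3.97% and 2.24%), the CRE in 1 (3.45%, against 3.21% and 1.88%) and the YY1 core in 0 (against 6.99% and 6.48%). The letters of 6 of the 9 motifs were thus in a larger share of repair windows than of windows of genes with an accessible promoter. They were the GC box, CCAAT box, NRF1 core, ETS core, CRE and E-box. Both sets were chosen differently: a repair window had to lie at the accessible region, while the others were the first listed window of each gene. These shares describe 29 windows, 1 of which is 3.45%, and carry no test.

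The counts in regions summed to between 4474652 and 25461110 per sample, and the median count per region was 56 to 241 in young and 35 to 96 in aged samples. At the repair promoters the count in a single sample ran from 32 (Xrcc2) to 2634 (Msh3). Promoter regions of all 6 hepatocyte markers were present, with a summed signal of 476 to 559 CPM in young and 613 to 715 CPM in aged samples, and 1 of them was called more accessible. None of the 4 lymphocyte markers and 1 of the 4 Kupffer cell markers (Clec4f, 2.22 to 2.65 CPM in young and 0.588 to 2.80 CPM in aged samples) had a promoter region, while Adgre1, Cd68 and Csf1r had none. For endothelial cells this held for 3 of 4 (57.2 to 62.0 CPM against 44.5 to 75.1 CPM, without Pecam1), for stellate cells for 2 of 4 (20.9 to 24.0 CPM against 11.9 to 19 CPM, without Des and Pdgfrb) and for cholangiocytes for 2 of 3 (41.7 to 49.5 CPM against 36.7 to 54.3 CPM, without Krt19). The 6 promoters of proliferation genes summed to 164 to 176 CPM in young and 175 to 219 CPM in aged samples. Of these non-hepatocyte lists, 0 promoters were called in either direction. Their median log2-fold change (aged relative to young) was -0.66 at Clec4f, -0.35 for endothelial, -0.43 for stellate and -0.41 for cholangiocyte markers. It was 0.18 for the proliferation genes and 0.28 for the hepatocyte markers. The part of other cell types in the results was not tested. In bulk tissue, a change within cells and a change in the mix of cells cannot be told apart.

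The question of the comparison was whether the promoters of repair genes were more or less accessible in aged than in young liver. Accessibility was higher in aged liver at 2 of the 39 promoters by edgeR's quasi-likelihood test (adjusted p under 0.05 over all 55680 regions): Msh3, which encodes a mismatch recognition protein, and Ddb2, which encodes a sensor of ultraviolet lesions. These were 5.13% of the 39 genes, against 4.48% of all 15422 promoter regions and 2.44% of all regions. No repair promoter (0 of 39) was called less accessible, against 2.06% of promoter regions and 3.3% of all regions. DESeq2 and limma voom also called 0 less accessible, and the unadjusted edgeR p was under 0.05 at 13 promoters, 11 with a higher and 2 with a lower mean in aged liver (3541 and 1408 of the 15422 promoter regions). The median log2-fold change (log2 FC, aged relative to young) over the 39 promoters was 0.15, against 0.09 over all promoter regions, and 30 of 39 were above 0, against 61.1% of all promoter regions. Scaled to total counts the median was 0.03, and with offsets fitted on mean abundance it was -0.02 with 17 above 0. Leaving out 1 sample changed the 2 calls to 0 without young replicate 1, young replicate 2, aged replicate 1 or aged replicate 3, to 1 without young replicate 3 and to 3 without aged replicate 2 or aged replicate 4. Summing a pair of aged samples, as if they came from 1 animal, left 1 call (Msh3) for 5 of the 6 pairs and gave 4 for aged replicates 2 and 4. The share of repair promoters that were called was thus close to the share of all promoters.

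**Figure D1:**
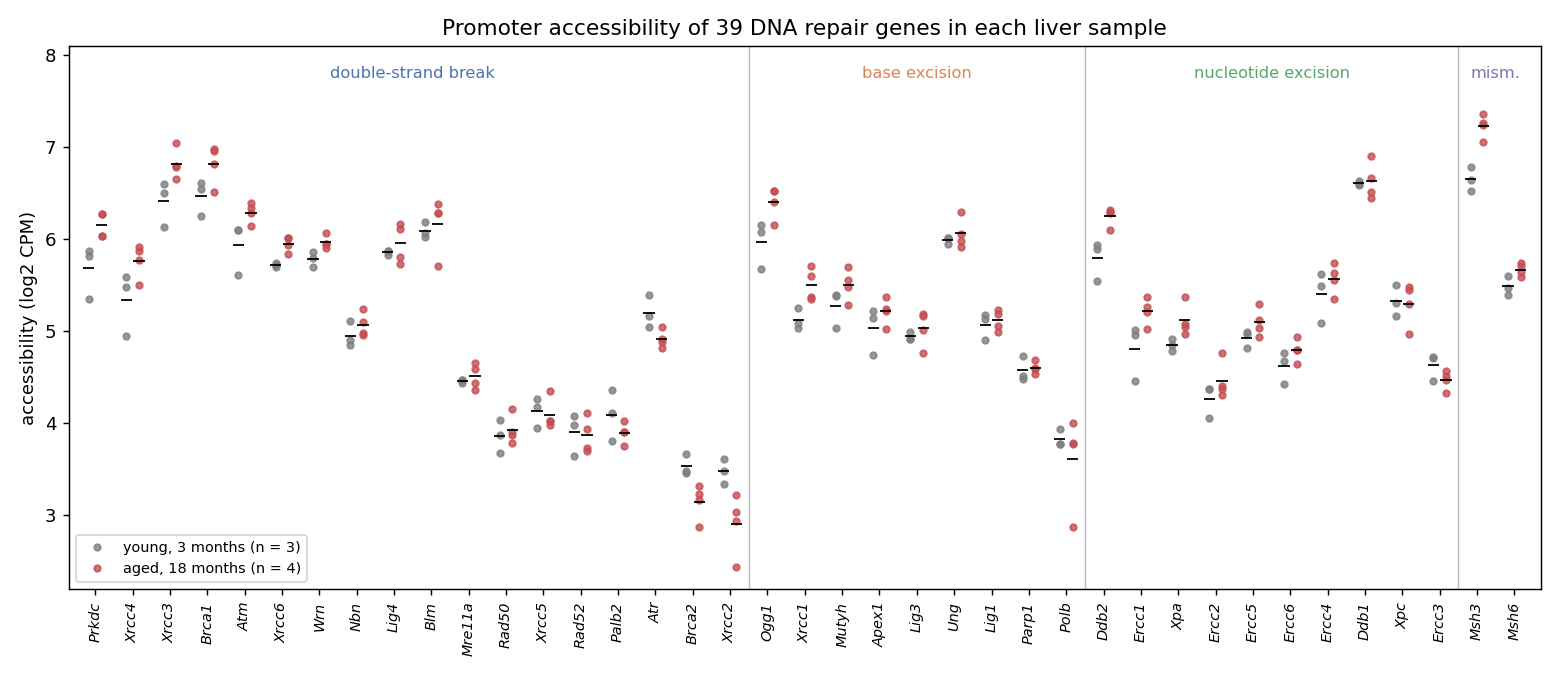
Accessibility (log2 CPM, vertical axis) of the promoter region of each of 39 repair genes (horizontal axis, grouped by pathway and ordered by log2 FC) in 3 young (grey) and 4 aged (red) liver samples, with group means as bars. The aged samples of Msh3 lie between 7.05 and 7.36, above all young ones (6.53 to 6.79), and those of Xrcc2 lie between 2.44 and 3.22, below all young ones (3.34 to 3.61).

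Promoters at which every aged sample lay above every young one numbered 10 of 39 (25.6%, against 20.4% of all promoter regions), the called Msh3 and Ddb2 among them. The other 8 were Atm, Xrcc3, Xrcc6, Prkdc, Wrn, Xrcc1, Xpa and Ercc1, with log2 FC of 0.18 to 0.45 and adjusted p of 0.065 to 0.31. With abundance offsets their log2 FC ran from -0.06 (Wrn) to 0.23 (Ercc1). Every aged sample lay below every young one at 3 of 39 (7.69%, against 8.88% of all promoter regions), which were Atr, Brca2 and Xrcc2, all genes of double-strand break repair, with adjusted p of 0.14 to 0.22. Young replicate 3 was the lowest of the 7 samples at 15 of the 39 promoters (it was so at 27.5% of all promoter regions), and aged replicate 4 was the highest at 11 (25% of all promoter regions). The median deviation from a promoter's mean was -0.04, -0.04 and -0.12 on the log2 scale for young replicates 1 to 3, and 0.13, -0.01, 0.07 and 0.07 for aged replicates 1 to 4. Aged replicate 2 was therefore nearer to the young samples than the other aged samples were.

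The members of double-strand break repair had the widest range of log2 FC of the pathways, from -0.54 to 0.45, and were also the most numerous. Their median log2 FC was 0.10 (-0.02 with total counts and -0.02 with abundance offsets, so its direction depends on the scaling), 12 of 18 were above 0 and 0 were called. Break signalling had a median of 0.06 over 5 genes, with Atm and Atr, the kinases that answer to breaks and to stalled replication, at opposite ends. Under total counts and abundance offsets this median turned to -0.06 and -0.02.

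The promoter of Atm (chr9:53535869-53537540, a region shared with Npat) had log2 CPM of 6.10, 6.10 and 5.62 in young replicates 1 to 3 and of 6.39, 6.14, 6.29 and 6.34 in aged replicates 1 to 4. The aged samples lay above the young ones, with young replicate 3 the lowest, and the log2 FC of 0.33 (SE 0.13) did not pass the test (adjusted p = 0.14). At the Atr promoter (chr9:95856297-95858506, which also holds the antisense gene 1700065D16Rik) the young samples had 5.16, 5.39 and 5.05 and the aged ones 4.81, 5.04, 4.89 and 4.92. Here the aged samples lay below the young ones, closely so for aged replicate 2 and young replicate 3, with a log2 FC of -0.31 (SE 0.13, adjusted p = 0.15). The log2 FC of Atr was negative under each scaling, from -0.45 with abundance offsets to -0.22 with GC offsets. The genes of the MRN complex, which holds broken ends, had log2 FC of 0.06 (Mre11a), 0.05 (Rad50) and 0.13 (Nbn), with overlapping ages.

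Homologous recombination was the group with the lowest median, at -0.13 over 6 genes (4 below 0), and the median stayed negative under DESeq2 scaling, total counts, GC offsets and abundance offsets. Within it, Brca1 and Xrcc3 had positive values and the other 4 negative ones. Xrcc2, which acts at the strand exchange step, had the lowest log2 FC of all 39 genes, at -0.54 (SE 0.22, adjusted p = 0.14). Its promoter (chr5:25705225-25706254) had log2 CPM of 3.49, 3.34 and 3.61 in young samples and of 3.22, 3.04, 2.94 and 2.44 in aged ones. It was also the promoter with the lowest signal per length, at 8.71 CPM per kb. Brca2, a tumour suppressor that acts at the same step, had 3.49, 3.46 and 3.67 in young and 3.17, 3.23, 3.32 and 2.87 in aged samples at chr5:150522062-150523067. The ages did not overlap there, the log2 FC was -0.39 (SE 0.19), and it did not pass the test (adjusted p = 0.22). A weaker promoter region of Brca2 had a log2 FC of -1.18 with overlapping ages (adjusted p = 0.11), and the median over its regions was -0.79. The strongest regions of both Xrcc2 and Brca2 were in the weakest tercile of promoter regions by mean signal.

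The partner of BRCA2, Palb2, had a log2 FC of -0.22, and Rad52 had -0.03, both with overlapping ages. Xrcc3, which also acts in strand exchange, went the other way at chr12:111813353-111815859, a region that also holds the start of Zfyve21. Its log2 CPM was 6.50, 6.61 and 6.14 in young and 6.78, 6.65, 6.80 and 7.05 in aged samples. The log2 FC of 0.39 (SE 0.13) did not pass the test (adjusted p = 0.092). It passed with GC offsets (0.42, adjusted p = 0.032), and with abundance offsets it was 0.07. Brca1, which acts upstream in the same pathway and shares its region with Nbr1, had a log2 FC of 0.35 (SE 0.13, adjusted p = 0.13) with overlapping ages. It passed with GC offsets (0.45, adjusted p = 0.036), and with abundance offsets it was 0.02. A weaker promoter region of Brca1 had -0.20, so that the median over its regions was 0.07. The weaker regions of Xrcc3 and Rad52 had 0.06 and -0.44, and none of the 3 passed the test.

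End joining had a median log2 FC of 0.23 over 5 genes (0.11 with total counts and -0.01 with abundance offsets). Prkdc, the DNA-dependent protein kinase that holds broken ends together with Ku, had the highest log2 FC of double-strand break repair. Its region (chr16:15636976-15638136, shared with the replication gene Mcm4) had log2 CPM of 5.82, 5.88 and 5.35 in young and 6.27, 6.03, 6.27 and 6.04 in aged samples. The ages were apart, and the log2 FC of 0.45 (SE 0.14) missed the threshold by edgeR (adjusted p = 0.065) and passed it by DESeq2 (adjusted p = 0.034) and without aged replicate 4 (edgeR adjusted p = 0.047). It was 0.33 with total counts (adjusted p = 0.13), 0.20 with abundance offsets (adjusted p = 0.46) and 0.32 without young replicate 3 (adjusted p = 0.13). The 2 Ku subunits differed from each other in value. Xrcc6 (Ku70, region shared with Desi1) had 5.74, 5.70 and 5.72 in young and 5.94, 5.84, 6.01 and 6.01 in aged samples, with a log2 FC of 0.23 (SE 0.10, adjusted p = 0.18). Xrcc5 (Ku80) had a log2 FC of -0.01 with overlapping ages. Xrcc4 and Lig4, whose products form the ligase complex that seals the ends, had log2 FC of 0.40 (SE 0.15, adjusted p = 0.13) and 0.11, again with overlapping ages.

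The RecQ helicases Wrn and Blm unwind recombination intermediates. Wrn, whose human counterpart is mutated in Werner syndrome, shared its region with Purg and had log2 CPM of 5.87, 5.70 and 5.80 in young and 5.95, 5.95, 5.90 and 6.07 in aged samples. The aged samples were all above the young ones by a narrow margin (log2 FC 0.18, SE 0.10, adjusted p = 0.31). The strongest promoter region of Blm lay 76821 bp inside the gene, at a transcript start not annotated as protein-coding, and had a log2 FC of 0.09. At the region over the start of the gene (chr7:80534558-80535687) the values were 4.76, 4.94 and 4.71 in young and 5.25, 5.17, 4.99 and 5.17 in aged samples. There the ages did not overlap, with a log2 FC of 0.34 (SE 0.12, adjusted p = 0.11), and the remaining region, inside the gene, had -0.34.

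**Figure D2:**
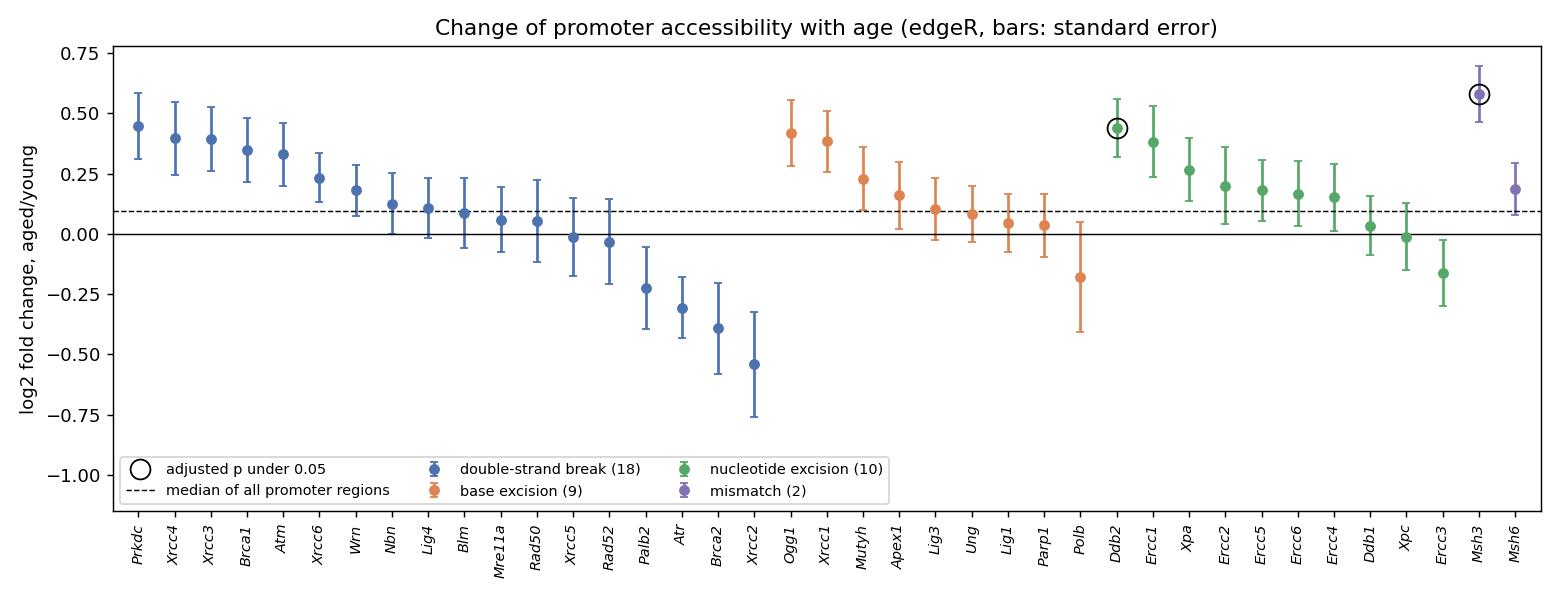
Log2 FC of promoter accessibility, aged relative to young (vertical axis), with the standard error from edgeR as bars, for the 39 repair genes (horizontal axis) grouped by pathway. Circles mark the 2 promoters with an adjusted p under 0.05, Ddb2 (0.44) and Msh3 (0.58), and the dashed line is the median of all promoter regions (0.09).

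Base excision repair had a median log2 FC of 0.10 (8 of 9 above 0, 0 called), and scaled to total counts or with abundance offsets its direction turned, to -0.02 and -0.04. The glycosylases, which cut out the altered base, had a median of 0.23 (0.11 with total counts and 0.04 with abundance offsets) and the core enzymes that follow had a median of 0.07 (-0.04 with total counts and -0.05 with abundance offsets). Ogg1, the glycosylase for oxidised guanine, had the highest log2 FC of the pathway. Its region (chr6:113326228-113327413) had log2 CPM of 6.16, 6.08 and 5.68 in young and 6.53, 6.15, 6.41 and 6.52 in aged samples. Aged replicate 2 overlapped the young samples, and the log2 FC of 0.42 (SE 0.14) missed the threshold by edgeR (adjusted p = 0.078). It passed the threshold by DESeq2 (adjusted p = 0.047) and without aged replicate 2 (edgeR adjusted p = 0.049). The log2 FC was 0.30 with total counts (adjusted p = 0.15), 0.14 with abundance offsets (adjusted p = 0.57) and 0.31 without young replicate 3 (adjusted p = 0.17), and a weaker promoter region of Ogg1 had -0.57. Mutyh, which removes adenine opposite oxidised guanine, and Ung, which removes uracil, had log2 FC of 0.23 and 0.08 with overlapping ages.

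Among the core enzymes, Xrcc1, the scaffold for the ligation step, was the member with the ages apart. Its values at chr7:24546528-24547344 were 5.04, 5.25 and 5.09 in young and 5.60, 5.71, 5.38 and 5.35 in aged samples. The log2 FC was 0.38 (SE 0.13, adjusted p = 0.080), and without aged replicate 4 it passed the threshold (adjusted p = 0.049). It was 0.27 with total counts (adjusted p = 0.22), 0.20 with abundance offsets (adjusted p = 0.48), and the adjusted p was 0.24 without young replicate 1. Polb, the gap-filling polymerase, had the lowest log2 FC of the pathway at -0.18 (SE 0.23, adjusted p = 0.67), with log2 CPM of 3.94, 3.77 and 3.77 in young and 3.79, 4.01, 3.78 and 2.87 in aged samples at chr8:22652904-22653741. That value rested on aged replicate 4, and without it the log2 FC was 0.03. The abasic site endonuclease Apex1 had a log2 FC of 0.16, the ligases Lig3 and Lig1 had 0.10 and 0.05, and the nick sensor Parp1 had 0.04, all with overlapping ages.

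Nucleotide excision repair had a median log2 FC of 0.17 over 10 genes, with 8 above 0 and 1 called, and its median was 0.06 with total counts and 0.05 with abundance offsets. The called promoter was that of Ddb2, which with Ddb1 finds ultraviolet lesions in chromatin. Its region (chr2:91236618-91237903) had log2 CPM of 5.90, 5.94 and 5.55 in young and 6.32, 6.10, 6.29 and 6.28 in aged samples, or 55.7 ± 7.86 CPM (SD, n = 3) and 76.0 ± 5.10 CPM (SD, n = 4). All aged samples were above all young ones, a 1.36-fold difference (log2 FC 0.44, SE 0.12, adjusted p = 0.046). The call was narrow. It was lost without any of young replicates 1, 2 and 3 or aged replicates 1, 3 and 4 (adjusted p of 0.10, 0.087, 0.087, 0.12, 0.12 and 0.052), with total counts (0.092) and with abundance offsets (log2 FC 0.18, adjusted p = 0.41). The region also holds the start of the non-coding gene A330069E16Rik on the opposite strand, and these counts do not separate it from Ddb2.

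The partner of DDB2 behaved differently in value. Ddb1 had a log2 FC of 0.03 with overlapping ages, although its region was among the strongest 5% of promoters by signal (percentile 95.1). Xpc, the sensor of distorted helices elsewhere in the genome, had -0.01, and Ercc6, which acts where RNA polymerase II has stalled at a lesion, had 0.17. The median over these 4 recognition genes was 0.10, and it turned to -0.02 with total counts and to -0.07 with abundance offsets.

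The genes for unwinding and verification split. Xpa, which checks the opened lesion, had log2 CPM of 4.79, 4.85 and 4.92 in young and 4.97, 5.05, 5.38 and 5.08 in aged samples at chr4:46195679-46196503. The ages were apart by a narrow margin, with a log2 FC of 0.27 (SE 0.13, adjusted p = 0.22). The helicases of TFIIH were Ercc2, with a log2 FC of 0.20, and Ercc3, which had the lowest value of the pathway at -0.16 (SE 0.14, adjusted p = 0.50). Ercc3 had 4.46, 4.71 and 4.72 in young and 4.57, 4.47, 4.51 and 4.33 in aged samples, so that the groups overlapped.

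The incision nucleases had log2 FC of 0.38 (Ercc1), 0.15 (Ercc4) and 0.18 (Ercc5). Ercc1 and Ercc4 encode the subunits of 1 nuclease. At the Ercc1 promoter (chr7:19344676-19345658) the young samples had 4.96, 5.02 and 4.46 and the aged ones 5.27, 5.02, 5.21 and 5.37. The lowest aged and the highest young sample nearly coincided, and young replicate 3 was far below the other young samples (SE 0.15, adjusted p = 0.13).

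The mismatch repair genes Msh3 and Msh6 encode proteins that recognise longer loops and single mismatches, respectively. Msh3 had the highest log2 FC and the lowest p of all 39 genes, and it had the strongest promoter per length, at 121 CPM per kb. Its region (chr13:92354519-92355588) also holds a TSS of another protein-coding gene. The log2 CPM was 6.79, 6.64 and 6.53 in young and 7.27, 7.05, 7.24 and 7.36 in aged samples, or 101 ± 9.21 CPM (SD, n = 3) and 150 ± 13.2 CPM (SD, n = 4). Every aged sample was above every young one, by 1.5-fold on average (log2 FC 0.58, SE 0.12, adjusted p = 0.016). The promoter stayed past the threshold with DESeq2, limma voom, total counts, GC offsets and each pair of aged samples summed. It missed it without aged replicate 1, aged replicate 3, young replicate 1 or young replicate 2 (adjusted p of 0.057, 0.055, 0.054 and 0.070), and with abundance offsets the log2 FC was 0.22 (adjusted p = 0.21). The reads cannot be assigned to Msh3 alone. Msh6, alone in its region (chr17:87974568-87975756), had 5.60, 5.40 and 5.47 in young and 5.64, 5.74, 5.59 and 5.71 in aged samples. Its aged samples overlapped the young ones only at young replicate 1, with a log2 FC of 0.18 (SE 0.11, adjusted p = 0.31), or -0.03 with abundance offsets.

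The sign of the change followed the strength of the promoter. Among the 17 repair promoters in the strongest tercile of all promoter regions by mean log2 CPM, 17 had a positive log2 FC (median 0.23), where the median of all promoter regions in that tercile was 0.27 and 94.1% were above 0. In the middle tercile 12 of 16 were above 0 (median 0.11, against 0.09 and 65.6%), and in the weakest tercile 1 of 6 (median -0.20, against -0.25 and 23.5%). The 6 were Rad50, Brca2, Palb2, Rad52, Xrcc2 and Polb, and 4 of them belong to homologous recombination. Across the 39 promoters the Pearson correlation of mean log2 CPM with log2 FC was 0.74 (Spearman 0.67), and across all 15422 promoter regions it was 0.65 (0.67). Promoters share the same 7 libraries and the level and the change come from the same counts, so these are descriptions. With abundance offsets, which remove a relation with level by construction, 17 of the 39 were above 0. Taking CPM per kb in place of log2 CPM gave 0.77 (Spearman 0.88) over the 39 and 0.58 (0.69) over all promoter regions.

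**Figure D3:**
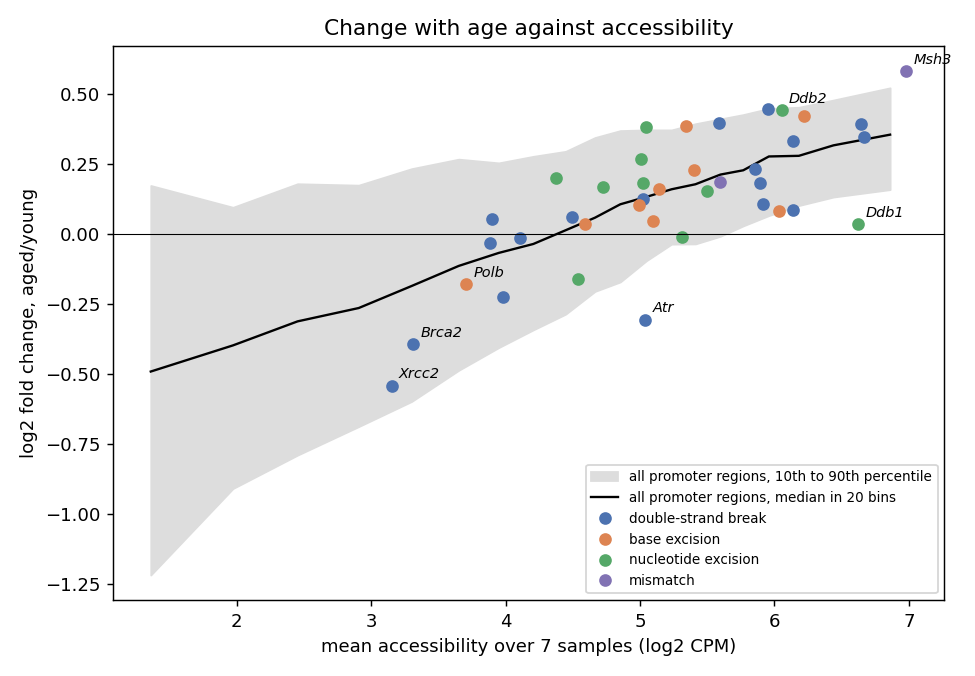
Log2 FC, aged relative to young (vertical axis), against mean accessibility over the 7 samples (log2 CPM, horizontal axis) for the 39 repair promoters (coloured by pathway), with the median (line) and the 10th to 90th percentile (grey) of all promoter regions in 20 bins of equal size. Most repair promoters lie within the grey band. Atr (-0.31), Ddb1 (0.03) and, narrowly, Blm (0.09) lie below the 10th percentile of their bin, and Msh3 (0.58) and, narrowly, Ercc1 (0.38) lie above the 90th.

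Set against all promoter regions of the same strength (20 bins of equal size), 20 of the 39 repair promoters had a log2 FC above the median of their bin and the median difference from it was 0.01. By pathway this was 9 of 18 for double-strand break, 4 of 9 for base excision, 6 of 10 for nucleotide excision and 1 of 2 for mismatch repair. The genes farthest above their bin were Ercc1, Msh3 and Xrcc1, by 0.25, 0.23 and 0.21 on the log2 scale. The genes farthest below were Atr (-0.44), Xrcc2 (-0.36) and Ddb1 (-0.32). Atr was thus the member whose change departed most from that of equally accessible promoters. The standard errors of the single promoters ran from 0.10 to 0.23, and these differences carry no test.

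A region shared with a neighbouring gene was common. The regions of 16 of the 39 genes also held a TSS of another protein-coding gene, among them Prkdc with Mcm4, Brca1 with Nbr1, Atm with Npat and Mutyh with Toe1. These 16 had a median log2 FC of 0.21 (14 above 0, 1 called), and the 23 regions without a protein-coding neighbour had 0.10 (16 above 0, 1 called). Across the genome the median was 0.18 for promoter regions of several protein-coding genes (75.1% above 0, 78 of 1374 called more accessible) and 0.09 for those of 1 (61.0% above 0, 544 of 12337 called more accessible). The shared regions of repair genes also had a higher median level, at 5.87 against 5.01 log2 CPM.

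The pathway medians under 5 scalings kept their order at the top, with mismatch repair above nucleotide excision repair in each. Double-strand break and base excision repair lay close to the median of all promoter regions in each. They were above 0 with TMM, DESeq2 and GC offsets (0.15 and 0.16, against 0.13 for all promoter regions) and below 0 with total counts (-0.02 and -0.02, against -0.03) and abundance offsets (-0.02 and -0.04, against -0.03). Mismatch repair rests on 2 genes. No test compared the pathways, since their members share the same samples.

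**Figure D4:**
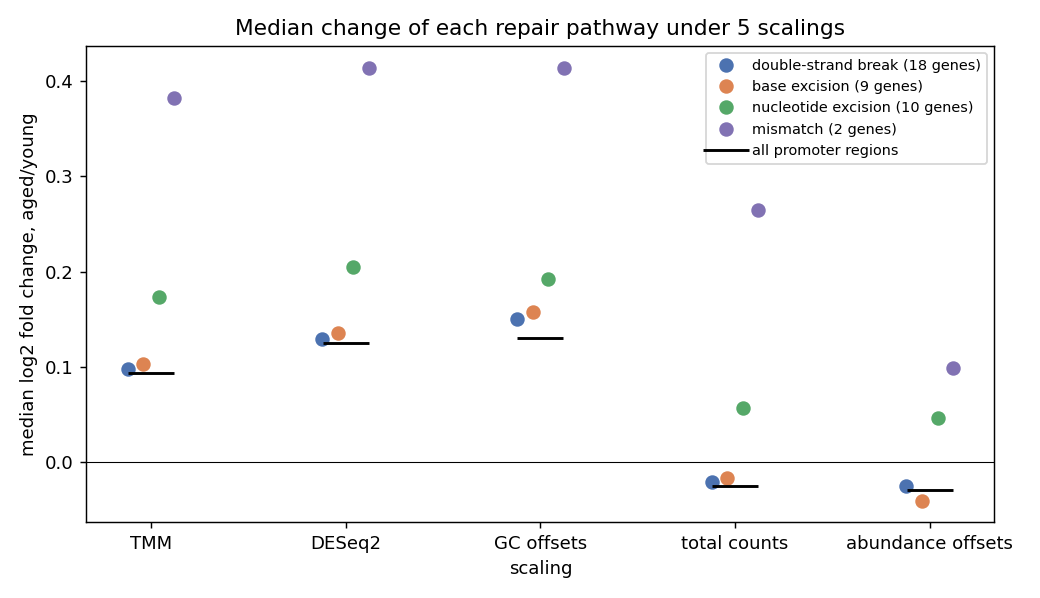
Median log2 FC (aged relative to young, vertical axis) of each repair pathway (coloured points) and of all promoter regions (black bars) under 5 ways of scaling the samples (horizontal axis). The medians of double-strand break and base excision repair change sign between TMM (0.10 and 0.10) and total counts (-0.02 and -0.02).

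Accessible regions inside the repair genes but away from any promoter were examined next. There were 27 of them, in 16 genes, with a median log2 FC of -0.04 and 10 above 0 (37.0%), where all regions outside promoters had a median of -0.09 and 41.0% above 0. Called were 0 as more accessible (against 1.66% of all regions outside promoters) and 2 as less accessible (against 3.78%). The first lay 8287 bp downstream of the start of Brca1 (chr11:101543281-101544055), with log2 CPM of 2.80, 2.23 and 2.11 in young and 1.09, 0.65, 0.67 and 1.07 in aged samples (log2 FC -1.58, SE 0.30, adjusted p = 0.014). The second lay 38632 bp inside Msh3 (chr13:92316154-92316589), with 1.62, 1.89 and 1.00 in young and -0.16, -0.03, 0.45 and 0.55 in aged samples (log2 FC -1.57, SE 0.38, adjusted p = 0.031). Both are weak regions, with 4 to 119 reads per sample, and in both genes the called region and the strongest promoter region had log2 FC of opposite sign. The other internal region of Brca1 (chr11:101518722-101519998) was stronger and had the sign of the promoter, at 0.22 with overlapping ages. The other internal regions of Msh3 had log2 FC of -0.58 to -0.29. Aged samples lay above all young ones in 2 of the 27 (7.41%, against 6.26% of regions outside promoters) and below in 4 (14.8%, against 12.7%).

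The pattern could be compared with 114 other repair genes on 113 promoter regions. Their median log2 FC was 0.18, 81 were above 0, 4 were called more accessible (against 4.48% of promoter regions) and 0 less, while an unadjusted edgeR p under 0.05 was found at 37 with a higher and 2 with a lower mean (3541 and 1408 of the 15422 promoter regions). DESeq2 also called 0 less accessible. The 4 were Bard1, the partner of BRCA1 (log2 FC 0.48, SE 0.11, adjusted p = 0.027), Pcna, the sliding clamp of DNA polymerases (0.42, SE 0.11, adjusted p = 0.040), Msh5, a meiotic MutS homologue (0.43, SE 0.11, adjusted p = 0.043), and Fancb of the Fanconi anaemia core complex (0.48, SE 0.13, adjusted p = 0.044). Bard1 had log2 CPM of 5.92, 5.90 and 5.80 in young and 6.43, 6.44, 6.13 and 6.39 in aged samples. In all 4 every aged sample was above every young one, and with total counts or abundance offsets 0 of the 4 were called. Without 1 sample the number called was 0 (young replicate 1, young replicate 2 or aged replicate 1), 1 (young replicate 3 or aged replicate 3), 2 (aged replicate 4) or 8 (aged replicate 2).

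Among these genes the median log2 FC was 0.10 for double-strand break (44 regions), 0.21 for base excision (20), 0.30 for nucleotide excision (21), 0.31 for mismatch (7), 0.13 for interstrand crosslink repair (13) and 0.33 for translesion synthesis and direct reversal (9). Mismatch and nucleotide excision repair had the higher medians of the 4 main pathways in both lists. The lowest values again belonged to weak promoters. They were those of Rad54l, a translocase of homologous recombination (-0.62, SE 0.28, adjusted p = 0.19), the DNA polymerase gene Poll (-0.49, SE 0.19, adjusted p = 0.13) and the glycosylase gene Neil2 (-0.41, SE 0.23, adjusted p = 0.28), at percentiles 9.89, 23.8 and 20.5 of promoter strength, and none of the 3 passed the test.

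**Figure D5:**
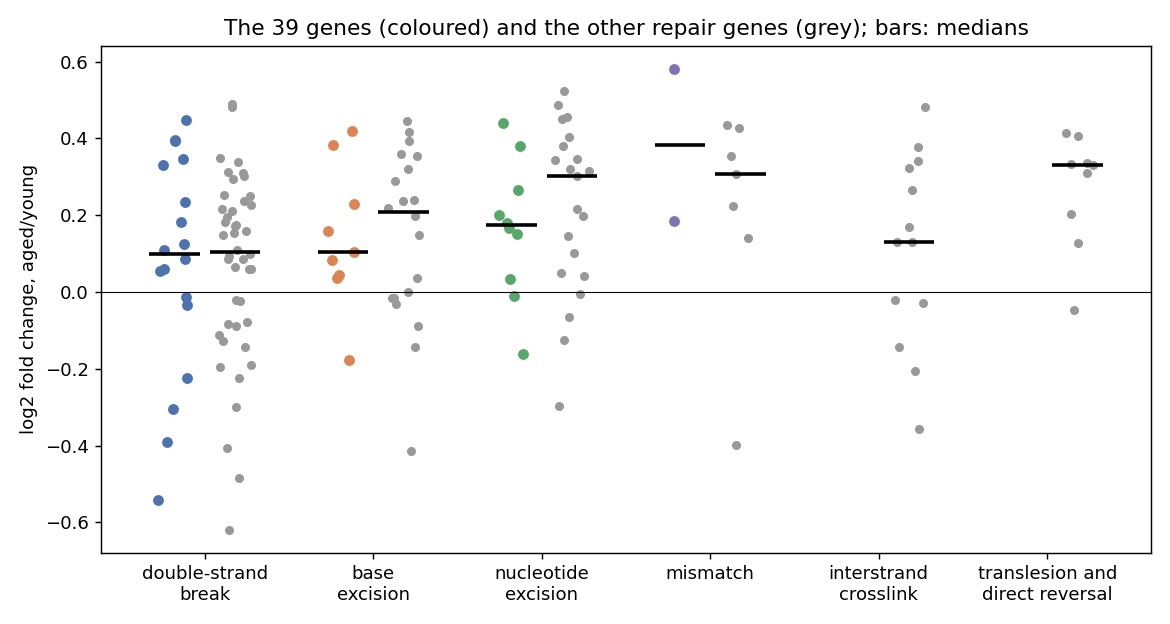
Log2 FC of promoter accessibility, aged relative to young (vertical axis), for the 39 repair genes (coloured) and 113 promoter regions of other repair genes (grey) by pathway (horizontal axis), with black bars for medians. The medians of the other genes run from 0.10 (double-strand break) to 0.33 (translesion and direct reversal) under TMM scaling, and with abundance offsets the median of all of them is 0.02.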

How the data were processed

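The authors trimmed paired-end Omni-ATAC reads (cutadapt 1.13), aligned them to GRCm38 (Bowtie2 2.4.1), removed low-quality, duplicate and mitochondrial reads, called peaks per sample (MACS2 2.2.7), dropped blacklisted regions and kept peaks found in at least 2 replicates. The values deposited are raw counts (featureCounts) per consensus region, without normalization; 0 columns were left unassigned. Whether insertion sites were shifted is not given in the sources used here.

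Counts of all 55680 regions were tested with edgeR 4.0.16 (R 4.3.3; TMM, quasi-likelihood, age as the only factor, Benjamini-Hochberg adjustment), in place of the DESeq2 of the study. Log2 CPM used a prior count of 2. Promoters were annotated with bedtools 2.31.1 and motifs searched with Python 3.11.15. The fit was tested on simulated data. No repair region had a near-identical copy elsewhere (minimap2 2.31, 80% of the region at 95% identity). Alternatives were DESeq2 1.42.0, limma 3.58.1 voom, filterByExpr, scaling to total counts, loess offsets (span 0.3) on abundance or GC content, a replicate block, leaving out each sample, summing pairs of aged samples, a threshold of 0.01 and other promoter definitions. Members and gene lists were chosen with earlier results of these data known. Values in every sample are given for called members, the highest and lowest log2 FC of each pathway and members whose ages did not overlap. The other chromatin and RNA data of the study were not analysed here.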

Additional observations from a re-analysis of the deposited data

Results flagged for a closer look

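In each group of 4 aged samples a gap test (Dixon, 95%) was run at the 39 repair promoters, and 2 stood out, where chance alone gives about 1 in 20. At Xrcc5 aged replicate 1 had a log2 CPM of 4.35, against 3.99 to 4.02 in the other aged samples and 3.95 to 4.26 in young ones. At the strongest region of Blm aged replicate 1 had 5.71, against 6.28 to 6.39 in the other aged samples and 6.02 to 6.19 in young ones. This test was not run on the 3 young samples.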

How the results depend on the processing

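The scaling moved the results most. With offsets on mean abundance 0 of the 39 repair genes (members) were called, 17 were above 0 and the median log2 FC was -0.021 over the members, -0.025 for double-strand break, -0.040 for base excision, 0.046 for nucleotide excision and 0.099 for mismatch repair. With total counts 1 member was called and these medians were 0.034, -0.020, -0.016, 0.056 and 0.26, while the median of all regions shifted from -0.04 to -0.15. GC offsets gave 6 calls and a double-strand break median of 0.15, and DESeq2 gave 4 calls. Over all regions the number called more accessible was 1360 in the reported fit, 3497 with GC offsets, 2760 with DESeq2, 2197 with limma voom, 543 with total counts and 247 with abundance offsets. At an adjusted p under 0.01 there were 0 calls, and the sums of aged samples gave 1 call each, except 4 for aged 2 and 4. Leaving out 1 sample gave 0 to 3 calls, 30 to 32 members above 0, and medians of 0.11 to 0.21 (members), 0.077 to 0.11 (double-strand break), 0.087 to 0.15 (base excision), 0.11 to 0.24 (nucleotide excision) and 0.35 to 0.45 (mismatch). In none of these settings was a member called less accessible.

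For the other repair genes the 4 calls became 18 with DESeq2, 9 with limma voom, 24 with GC offsets, 12 with aged 2 and 4 summed, 1 with the pairs 1 and 3, 1 and 4, 2 and 3 or 3 and 4 summed, 0 with total counts, 0 with abundance offsets, 0 at 0.01, and 0 to 8 without 1 sample. Over all regions DESeq2, limma voom and GC offsets called 2760, 2197 and 3497 more accessible, against 1360 in the reported fit. Taking the median over all promoter regions of a gene called 1 of these repair genes less accessible. Their median of 0.18 was 0.061 with total counts, 0.019 with abundance offsets and 0.15 to 0.22 without 1 sample.

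Log2 FC of single members that changed sign were mostly small. With abundance offsets they were Blm -0.18, Ddb1 -0.29, Ercc4 -0.052, Lig1 -0.11, Lig3 -0.040, Lig4 -0.14, Mre11a -0.018, Msh6 -0.027, Nbn -0.021, Parp1 -0.054, Ung -0.18, Wrn -0.064 and Xrcc6 -0.0090, and with total counts Blm -0.032, Ddb1 -0.086, Lig1 -0.072, Lig3 -0.016, Lig4 -0.0088, Mre11a -0.056, Parp1 -0.084, Rad50 -0.062 and Ung -0.038. DESeq2 gave Xpc 0.019 and Xrcc5 0.021, limma voom Xpc 0.0037 and Xrcc5 0.050, and GC offsets Xpc 0.043 and Xrcc5 0.055. Summed aged samples gave Ddb1 -0.015, Rad52 0.0082 and Xpc 0.037 (pair 1 and 3), Xpc 0.032 and Xrcc5 0.0098 (2 and 3), Xrcc5 0.0086 (2 and 4) and Ddb1 -0.029, Xpc 0.022 and Xrcc5 0.014 (3 and 4). The median over all promoter regions gave Ogg1 -0.074. Leaving out 1 sample in turn, the members that changed sign, with their lowest and highest value, were Ddb1 (-0.062 to 0.099), Lig1 (-0.014 to 0.10), Parp1 (-0.0045 to 0.12), Polb (-0.31 to 0.033), Rad50 (-0.032 to 0.16), Rad52 (-0.15 to 0.060), Xpc (-0.069 to 0.088) and Xrcc5 (-0.12 to 0.063). The cause of these changes was not tested. The filter on low counts, a TSS window of 1000 bp, protein-coding TSSs and the region nearest the 5′ end of the gene (an alternative chosen after seeing the data) changed no member's sign or call. Where the region over the start of the gene was taken, Blm had a log2 FC of 0.34.

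Replicate numbers are shared between the ages, but same-numbered samples did not deviate together (correlations of -0.12, 0.06 and 0.03). So few correlations cannot exclude a pairing by number. A fit with the replicate number as a block called 2 members (Msh3 and Xrcc1, adjusted p for Xrcc1 0.0496) with a median of 0.16, and 1 of the other repair genes. Ddb2 had 0.43 there (adjusted p = 0.068), and Polb 0.027, Ung -0.0071 and Xrcc5 0.0035 changed sign. The weakest repair promoter had 32 reads in its shallowest sample, and with 7 samples the standard errors limit what can be called.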
